A study of Mus musculus with 2 samples.

Results

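The data describe 7 mouse genes of apoptotic cell recognition, of 18194 genes that a probe set of the array names alone. They are the 3 TAM receptors Mertk, Axl and Tyro3, the secreted proteins Gas6, Pros1 and Mfge8, and Timd4, and they were chosen by name, with all their single-gene probe sets. RNA was measured in mouse bone marrow-derived macrophages (BMDMs), obtained by culture of marrow in M-CSF, from C57BL/6J females of 8 weeks with no allele or transgene named in the labels. One group received, for 1 hr, the supernatant of apoptotic W3 cells, a mouse T cell line that carries Fas and was killed with Fas ligand. The control macrophages received medium for the same time, and each condition has 1 Affymetrix array, so no difference below has a replicate, an SD or a p-value. The macrophages were grown in a medium (DMEM) with more serum than the one (RPMI) in which the W3 cells stood. Whether the control medium matched the latter is not clear. A supernatant of living W3 cells was not analysed here, so apoptosis, W3 products and any difference in medium or serum cannot be told apart.

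Phosphatidylserine moves to the outer face of the plasma membrane when a cell undergoes apoptosis, and phagocytes read it as an engulfment signal. TAM receptors are receptor tyrosine kinases that do not bind this lipid themselves. Gas6 and protein S, the product of Pros1, bind it through a domain whose glutamates are carboxylated with vitamin K, and link it to the receptors. Protein S acts on Mertk and Tyro3, while Gas6 binds all TAM receptors. Mfge8 links phosphatidylserine to integrins, and Tim-4, the product of Timd4, binds it directly. In macrophages Mertk is known for engulfment and for dampening inflammatory signalling.

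The upstream sequence of Mertk is shown because it was the only one of the 7 genes past the 2-fold threshold, and that of Gas6 because it encodes the ligand shared by the TAM receptors and had close to equal signals. Both are the 250 bases before the start site in RefSeq, 5′ to 3′ on the gene's strand, in build GRCm38.p6, at chr2:128698665-128698914 on the plus strand and chr8:13494536-13494785 on the minus strand. Capitals mark the GC box, searched as GGGCGG on both strands.
Mertk: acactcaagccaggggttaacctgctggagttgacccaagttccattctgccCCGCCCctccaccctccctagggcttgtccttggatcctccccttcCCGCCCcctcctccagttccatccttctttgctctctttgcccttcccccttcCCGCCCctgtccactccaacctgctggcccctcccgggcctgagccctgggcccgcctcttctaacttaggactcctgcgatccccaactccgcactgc
Gas6: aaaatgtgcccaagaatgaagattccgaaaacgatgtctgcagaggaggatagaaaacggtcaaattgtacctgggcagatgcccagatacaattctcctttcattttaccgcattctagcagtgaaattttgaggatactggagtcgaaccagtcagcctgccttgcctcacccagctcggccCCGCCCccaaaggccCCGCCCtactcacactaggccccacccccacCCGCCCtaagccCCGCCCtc
The Mertk sequence held 3 GC boxes and the Gas6 sequence 4, and 32.7% of 32851 upstream sequences of this length in the table held at least 1. The others held 1 (Axl), 3 (Tyro3), 5 (Pros1), 4 (Mfge8) and 0 (Timd4), where 2 of the matches in Pros1 overlap. All 7 genes matched the table, and for 4 of them, Mertk, Gas6, Pros1 and Mfge8, the start site is the 5′ end of the annotated gene. The cAMP response element TGACGTCA, its half-site TGACG (which the full element contains), the Nr4a response element AAAGGTCA and the E-box CACGTG were searched in the same way, with 0 matches in any of the 7. They occur in 1.55%, 17.8%, 1.34% and 6.02% of all upstream sequences, in that order. These matches describe letters in the window only. The motifs and the sequences to print were chosen after the signals were seen.

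Of the 7 genes, Mertk had a higher signal with the apoptotic cell supernatant, Axl, Gas6 and Mfge8 had ratios of supernatant to medium between 0.944 and 1.02, and Pros1 had a ratio of 0.811. Tyro3 and Timd4 were too dim to measure. As the RNA came from whole cultures, a smaller number of cells with a transcript and less of it in each cell cannot be told apart. The values are MAS5 signals, which are linear intensities with 1 value for each probe set. Dim signals were judged against 80 probe sets for olfactory or vomeronasal receptors, genes that macrophages are taken not to use: their 95th percentile was computed on each array and the higher value, 38.4, served as the floor. A gene counts as measured if its brightest probe set exceeds the floor on at least 1 array, and signals under it are raised to it before a ratio is taken. The 7 genes have 10 probe sets, of which 5 were above the floor on both arrays, 1 on 1 array and 4 on neither. None of their probe sets is shared with another gene in the annotation. Probe sets differ in how strongly they bind their target, so levels are not compared between genes. The marker lists further on are mainly described by their summed signal and the marker with the highest signal, with some further markers named.

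**Figure D1:**
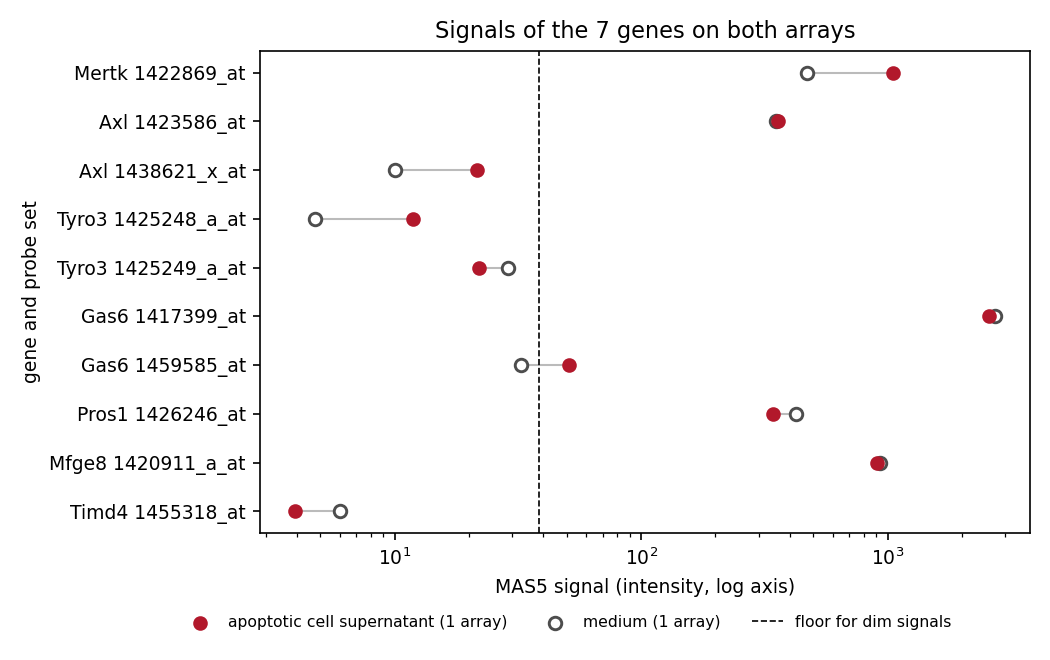
MAS5 signal (intensity, log axis) of each of the 10 probe sets of the 7 genes in BMDMs with apoptotic cell supernatant (filled) and with medium (open), 1 array each, and a dashed line at 38.4, the floor. The Mertk points stand apart at 1050.0 with the supernatant and 471 with medium, those of the bright probe sets of Axl, Gas6 and Mfge8 nearly coincide, and the Tyro3 and Timd4 points lie left of the floor.

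Mertk, the TAM receptor that macrophages use to engulf apoptotic cells, read 1050.0 with the supernatant and 471 with medium. Both signals were far above the floor, and the ratio was 2.23-fold, or 1.16 on the log2 scale. Only 1 probe set reads Mertk, so no second reading on these arrays bears on this value. Of 11977 measured genes, 76 had a higher log2 ratio than Mertk and 11900 a lower one.

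Axl, the TAM receptor that responds to Gas6 alone, read 359 with the supernatant and 353 with medium on its bright probe set, a ratio of 1.02-fold. Its other probe set, whose _x suffix marks possible cross-hybridization, read 21.6 with the supernatant and 10.1 with medium, under the floor on both arrays. The log2 ratio of Mertk exceeded that of Axl by 1.13, which makes the fold of Mertk 2.19 times that of Axl. That difference was 0.59 where the log2 signals of all probe sets of a gene were averaged, which takes in the dim Axl probe set. The spread between arrays is unknown. The SD of a single probe set's log2 ratio, taken from the differences between the 2 brightest probe sets of 5196 genes, was 0.25, and the SD of the log2 ratio over all measured genes was 0.36. Neither of these measures biological or array error.

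Tyro3, the TAM receptor best known from the nervous system, read 21.9 with the supernatant and 28.7 with medium on its brighter probe set. The dimmer one read 11.9 with the supernatant and 4.76 with medium. All 4 signals lie under the floor, so Tyro3 gave no ratio and its difference from Mertk has no value. Among the TAM receptors, Mertk and Axl were therefore above background in these BMDMs and Tyro3 was not.

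The ligands and the bridging protein had lower or close to equal signals. Gas6, the vitamin K-dependent ligand of the TAM receptors, read 2568 with the supernatant and 2721 with medium on its bright probe set, a ratio of 0.944. Its other probe set read 50.9 with the supernatant and 32.5 with medium. That medium signal is under the floor, so the ratio was at least 1.33-fold, and both signals lie under the highest receptor signal of 62.4. The 2 probe sets of Gas6 thus pointed in opposite directions, with the dim one near background.

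Pros1, which encodes protein S, an anticoagulant cofactor and ligand of Mertk and Tyro3, read 344 with the supernatant and 424 with medium on its only probe set. Its log2 ratio was -0.30, the lowest of the 5 measured genes. Over all measured genes the 5th percentile of the log2 ratio was -0.55 and the 95th was 0.50, so Pros1 lay inside that range and Mertk outside it. Mfge8, the milk fat globule protein that ties phosphatidylserine to integrins, read 908 with the supernatant and 929.8 with medium, a ratio of 0.977. Its 1 probe set carries the _a suffix, which marks several transcripts of 1 gene.

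Timd4, which encodes the phosphatidylserine receptor of resident macrophages such as those of the peritoneum, read 3.96 with the supernatant and 5.98 with medium. Both lie far under the floor, and also under 10.0, the median of the receptor probe sets on the brighter of the arrays. Timd4 transcripts were thus not detectable in either condition by its single probe set.

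Of the 5 measured genes, 1 (Mertk) passed 2-fold upward with the supernatant and 0 passed it downward. Over all 11977 measured genes, 0.96% passed it upward and 0.843% downward, and among the 10696 genes above the floor on both arrays, as Mertk was, 0.841% were higher. The count of the 7 genes rests on Mertk alone. Their median log2 ratio was -0.03 and that of all measured genes was -0.02, and the median over Gas6, Pros1 and Mfge8 was -0.08.

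**Figure D2:**
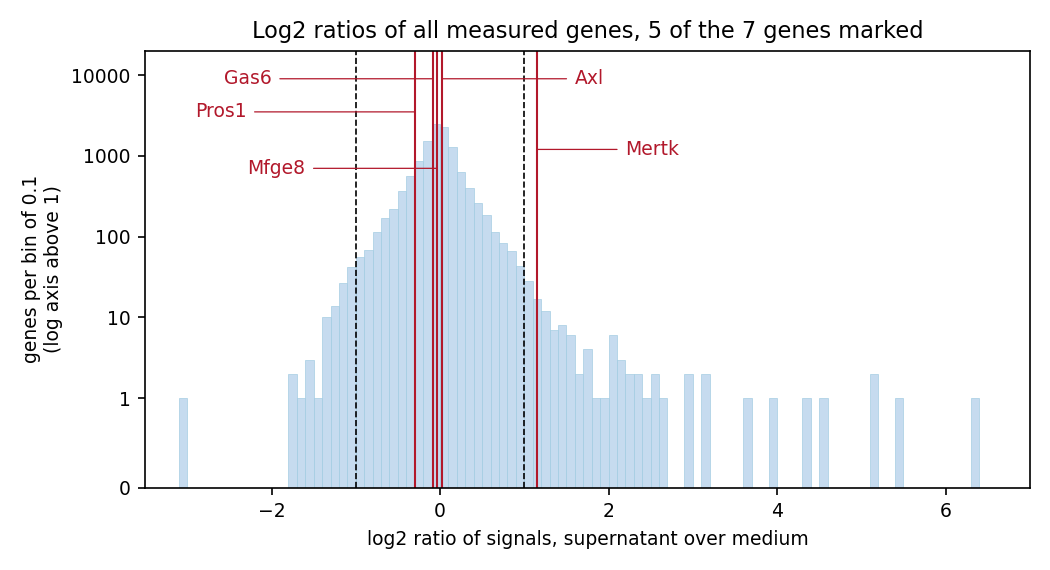
Number of genes per bin of 0.1 in the log2 ratio of signals, supernatant over medium (horizontal axis), for the 11977 measured genes, on a vertical axis that is logarithmic above 1, with red lines at 5 of the 7 genes and dashed lines at a 2-fold difference. Axl, Gas6, Pros1 and Mfge8 fall between -0.30 and 0.02, and Mertk lies beyond the dashed line at 1.16.

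Related genes were taken from 8 lists that hold other parts of the same process, with 72 genes in all. Of these, 67 have a single-gene probe set, 56 were measured, and 11 were under the floor on both arrays. The other 5 were not analysed here. Of the 56, 2 passed 2-fold upward (Thbs1 and Plscr1) and 0 downward, with a median log2 ratio of -0.02, beside 0.96% and 0.843% over all measured genes. These counts use the brightest probe set of each gene, and dimmer probe sets of 5 other genes in the lists, Cd300a, Edil3, Anxa1, Akt1 and Maf, passed 2-fold where the brightest did not.

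Among 12 measured receptors of phosphatidylserine and other engulfment receptors, 0 passed the threshold on the brightest probe set. A dimmer one of Cd300a, an inhibitory receptor for the lipid, read 77.1 with the supernatant and 30.9 with medium. That medium signal is under the floor, so the ratio was at least 2.01-fold, while the brightest Cd300a probe set had a ratio of 0.86. Among the receptors above the floor on both arrays, the highest log2 ratio was that of Scarf1, a scavenger receptor that binds apoptotic cells. It read 214 with the supernatant and 117 with medium (1.82-fold). The lowest among them was that of Cd300lf, a lipid-binding receptor of myeloid cells, at 658 with the supernatant and 906 with medium (log2 ratio -0.46). Stab2, Havcr1, Timd2 and Megf10 were under the floor on both arrays. Some receptors, like Timd4, bind the lipid directly. Of these, Stab1 read 3149.9 with the supernatant and 3279.7 with medium, and Havcr2 1429 with the supernatant and 1374 with medium. Adgrb1, also a direct receptor, read 5.83 with the supernatant and 47.6 with medium, so its ratio was at most 0.81. Ager read 53.3 with the supernatant and 18.7 with medium, a ratio of at least 1.39-fold. Both were above the floor on 1 array only, so whether either passed 2-fold is not settled.

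Among 10 measured soluble opsonins and bridging proteins, 1 passed the threshold, and the log2 ratios had a median of -0.03. Thbs1, a secreted protein that can link apoptotic cells to Cd36 and integrins, read 1175 with the supernatant and 56.2 with medium, 20.9-fold higher, and 8.84-fold higher on its other probe set. It is 1 of the genes the study discusses from these arrays, so its place here is no independent result. Tub, a bridging protein reported to act through Mertk, had the lowest ratio, at 39.2 with the supernatant and 49.7 with medium, both close to the floor. C1qa, C1qb and C1qc, the chains of the complement component that coats apoptotic cells, had log2 ratios of -0.02, 0.01 and 0.00. Of the dimmer probe sets, 1 of Edil3 read 98.3 with the supernatant and 2.37 with medium, and 1 of Anxa1 read 54.7 with the supernatant and 112 with medium. That Edil3 medium signal is under the floor, so the ratio was at least 2.56-fold. The brightest probe sets had ratios of 0.84 (Edil3) and 0.973 (Anxa1).

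Of the integrin subunits that receive Mfge8, Itgav read 16672 with the supernatant and 16478 with medium on its brightest probe set. Its 2 other probe sets that both arrays measured had ratios of 0.996 and 0.807. The 4 probe sets of Itgb5 had ratios between 0.924 and 0.990. Itgb3 was dim, at 44.1 with the supernatant and 63.4 with medium, and none of the 3 genes passed the threshold.

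The enzymes that mature Gas6 and protein S were measured too. Ggcx, the gamma-carboxylase of both ligands, read 69.4 with the supernatant and 48.1 with medium, a log2 ratio of 0.53 from dim signals. Vkorc1l1, which recycles vitamin K, read 952 with the supernatant and 1049 with medium. Vkorc1, the main enzyme of that step, had a log2 ratio of -0.02, and none of the 4 genes of this list passed the threshold.

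The proteases that shed TAM receptors from the cell surface had close to equal signals on their brightest probe sets. Adam17, the protease known to cleave Mertk, had log2 ratios of -0.09, -0.22 and -0.23 on its 3 probe sets. Adam10, which sheds Axl, was at -0.01 on its brightest probe set, and at -0.16 and -0.45 on its 2 dimmer ones above the floor. Rhbdf2 and Rhbdf1, which bring Adam17 to the surface, had log2 ratios of 0.11 and -0.46, and Rhbdf1 was dim, at 57.6 with the supernatant and 79.3 with medium.

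Of 10 measured genes of TAM signalling and its feedback, 0 passed the threshold on the brightest probe set. A dimmer probe set of Akt1, a kinase downstream of PI 3-kinase, read 165 with the supernatant and 70.3 with medium (2.34-fold), while its brightest had a log2 ratio of 0.05. Pik3r1, the regulatory subunit of PI 3-kinase, had the highest log2 ratio (0.58, at 2916 with the supernatant and 1947 with medium), and its 4 probe sets lay between 1.28-fold and 1.53-fold. Nck2, an adaptor protein, had the lowest, at 591 with the supernatant and 636 with medium. Of the feedback genes named for TAM receptors, Socs3 had a log2 ratio of 0.25, while Socs1, Twist1 and Twist2 were under the floor on both arrays. Ifnar1, the interferon receptor chain through which TAM receptors are known to act, had a log2 ratio of 0.10.

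Among 8 measured transcription factors tied to these genes, the log2 ratios of the brightest probe sets lay between -0.28 (Ppard) and 0.18 (Pparg). Dimmer probe sets went beyond that range. Maf, a factor of the macrophage lineage, had a log2 ratio of -0.10 on its brightest probe set and of -0.29, -0.34, -0.52 and -1.68 on the 4 others above the floor on both arrays, the last at 88.3 with the supernatant and 284 with medium. A dim probe set of Nr3c1, the glucocorticoid receptor, was at -0.64, from 49.6 with the supernatant and 77.1 with medium, while its brightest was at 0.04. For Rxra, a partner of the liver X receptors, a dimmer probe set was at 0.55 and the brightest at 0.07. Nr1h3, the liver X receptor known to drive Mertk in macrophages, read 122 with the supernatant and 143 with medium. Of 5 measured genes of phosphatidylserine exposure, Plscr1, a phospholipid scramblase also known as an interferon-induced gene, read 1384 with the supernatant and 688 with medium, 2.01-fold higher, and 2.06-fold on a second probe set. Its brightest probe set has the _x suffix and the second the _a suffix, and with the floor as a pseudocount, with probe sets averaged or with unsuffixed ones alone Plscr1 did not pass the threshold. Ano6, a calcium-activated scramblase, had the lowest ratio, at a log2 value of -0.07, and Xkr8, the caspase-activated scramblase, was at 0.16.

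**Figure D3:**
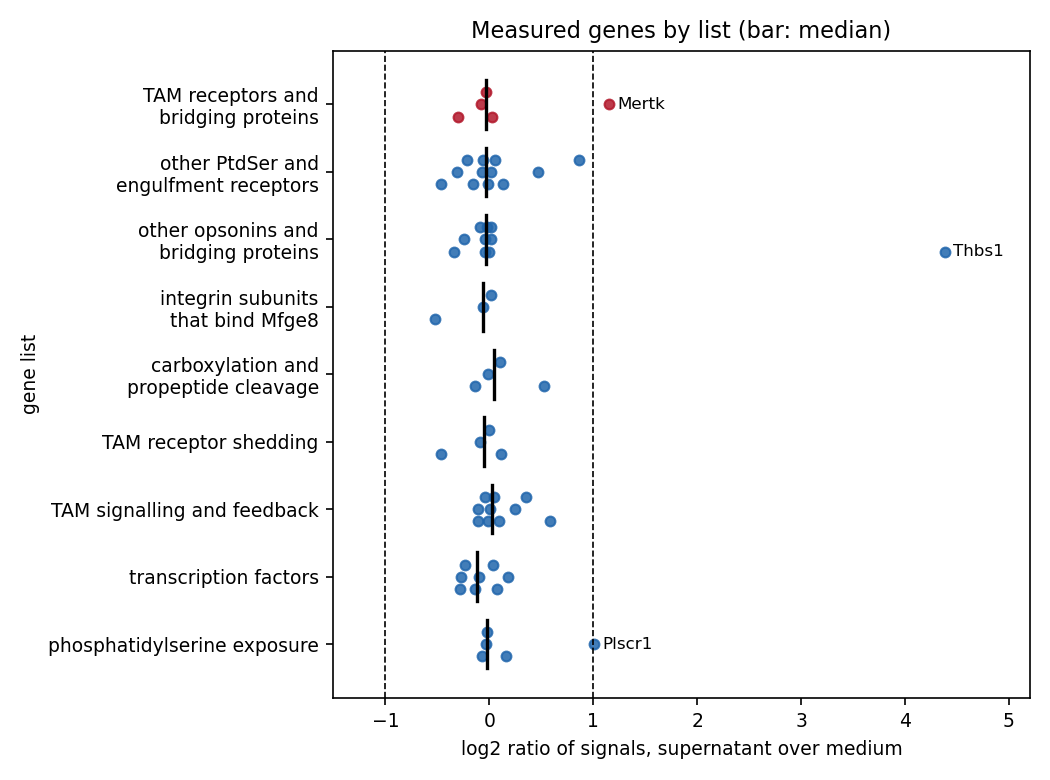
Log2 ratio of signals, supernatant over medium (horizontal axis), for the brightest probe set of each measured gene (points) among the TAM receptors and bridging proteins (red) and 8 related lists (blue), with a bar at each list's median and a 2-fold difference shown by dashed lines. Mertk (1.16), Thbs1 (4.39) and Plscr1 (1.01) are the points beyond the right dashed line, and no point lies beyond the left one.

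The cells carried macrophage markers on both arrays: all 10 were above the floor with log2 ratios between -0.16 and 0.38, and Lyz2, the brightest, read 31345 with the supernatant and 32155 with medium. Of 9 T cell markers 7 were under the floor on both arrays, among them Cd3d, Cd3e and Cd3g, and the list's summed signal was 121 with the supernatant and 233 with medium, with its highest marker signal in Cd8a (20.7 with the supernatant, 72.9 with medium). Of 8 stromal markers, a cell type that also expresses Axl, Gas6, Pros1 and Mfge8, 7 were under the floor, Col1a2 read 48.3 with the supernatant and 41.6 with medium, and the sum was 182 with the supernatant and 80.8 with medium. Summed signals of the other lists, supernatant before medium, were 529 and 576 for endothelial cells (brightest Kdr), 13729 and 12939 for megakaryocytes and platelets (Pf4, which macrophages also express), 261 and 253 for dendritic cells (Itgax) and 5238 and 5339 for B cells (Blnk, likewise in macrophages). The neutrophil list, with 3 of 7 markers under the floor, was higher, with 662 and 440 and S100a8 as its brightest gene (462 with the supernatant, 391 with medium). S100a9 read 73.0 with the supernatant and 5.85 with medium, which is under the floor, so its ratio was at least 1.90-fold. Elane read 51.8 with the supernatant and 9.89 with medium, and Ngp 51.5 with the supernatant and 19.9 with medium. Those medium signals are also under the floor, so the ratios were at least 1.35-fold (Elane) and 1.34-fold (Ngp). The sums take in signals under the floor, which give no ratio here, so they do not measure a difference in cell numbers. The part of T cells, stromal cells and neutrophils in the Mertk difference was not tested.

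**Figure D4:**
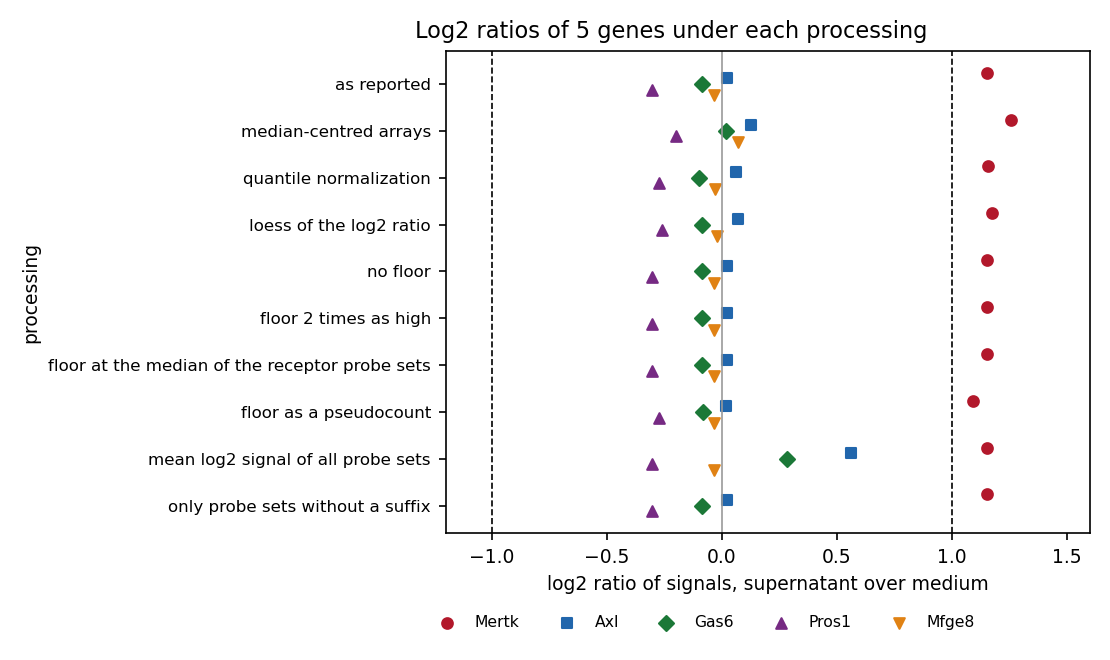
Log2 ratio of signals, supernatant over medium (horizontal axis), of 5 of the 7 genes as reported and under 9 other ways of scaling the arrays, treating dim signals or choosing probe sets (rows), with dashed lines at a 2-fold difference. Mertk stays right of the dashed line, between 1.09 and 1.26, and Axl reaches 0.56 where its dim probe set enters the mean. Only the scalings and the pseudocount could move Mertk, which has a single unsuffixed probe set with signals above every floor.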

How the data were processed

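RNA of 2 samples, 1 array per condition, was hybridized to a Mouse Genome array. What the authors deposited is a MAS5 signal, or linear intensity, per probe set, already scaled: the mean trimmed by 2% at each end was 500.0 on both arrays. No genome build for the probes is given in the sources used here. Probe sets were named from the platform annotation, which gave 34958 of 45101 a single gene, 932 several and left 9211 unlisted. The symbols were checked through Entrez identifiers in RefSeq, and 0 changed.

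The brightest probe set represented each gene, signals were floored at 38.4, and log2 ratios of supernatant to medium were called at 2-fold. Medians over all probe sets were 49.3 with the supernatant and 53.0 with medium. No test was run, and precision is limited by the number of arrays. The 7 genes, the lists and the rule for names (every probe set of the 7 genes, each related gene past 2-fold or else the highest and lowest of its list, and the brightest marker of each cell type) were chosen with earlier results of these data known, and further genes were named after their values were seen. Simulated data with known ratios were used to check the calculation. The software was matplotlib 3.10.9, statsmodels 0.14.6, pandas 2.3.3, numpy 2.4.6 and scipy 1.17.1 under Python 3.11.15, with 9 alternatives for scaling, floor and probe set, among them loess with a span of 30%.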

Additional observations from a re-analysis of the deposited data

How the results depend on the processing

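No paired analysis was possible because there is a single array for either condition. Under all 9 alternatives Mertk was the 1 gene of the 7 at least 2-fold higher and 0 were 2-fold lower, and the log2 ratio of Mertk ran from 1.09 to 1.26. Mertk has 1 probe set, without a suffix, and both its signals lie above every floor used. Its ratio was therefore bound to stay at 1.16 with another floor, without one or with another choice of probe sets. Only the scaling of the arrays and the pseudocount could move it. Dividing each array by its median moved the median log2 ratio of all genes to 0.08 from -0.02, which lifted Gas6 and Mfge8 above 0. When a gene's probe sets were averaged on the log2 scale, the log2 ratio of Mertk exceeded that of Axl by 0.59. Axl then stood at 0.56 and Gas6 at 0.28, since this mean takes in their dim probe sets. The median over the 5 measured genes of the 7 was 0.28 in that setting, while the median over all measured genes was -0.03. Related genes at least 2-fold higher, 2 as reported, numbered 6 without a floor, 4 with the receptors' median signal as the floor, and 1 (Thbs1) with the floor as a pseudocount, with averaged probe sets or with unsuffixed probe sets alone. Related genes at least 2-fold lower, 0 as reported, numbered 4 without a floor and 2 with the receptors' median as floor. Over all genes, 115 were higher and 101 lower as reported, against 150 and 60 with median-centred arrays, 136 and 63 after loess, 137 and 66 with quantile normalization, 77 and 27 with the floor doubled, 1865 and 2116 without one, 975 and 1158 with the receptors' median as floor, and 167 and 157 with averaged probe sets. The difference between Mertk and Tyro3 was not computed, as Tyro3 lies under the reported floor, and without suffixed probe sets Mfge8 has no value. Leaving out an array leaves no comparison.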

Other observations

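Mertk was also set beside other receptor tyrosine kinases, the class to which the TAM receptors belong. The list of 58 was added after the data were seen and is therefore given as values with no test. It includes the TAM receptors themselves, so the counts and the median below include Mertk and Axl. Of 56 with a single-gene probe set, 29 did not reach the floor on either array and 27 were measured, 20 of them on both arrays. By the brightest probe set of each, with signals floored, Mertk was the 1 measured kinase at least 2-fold higher and 0 were 2-fold lower. Over all measured genes 0.96% were higher and 0.843% lower. The median log2 ratio of the measured kinases was -0.02. For kinases above the floor on 1 array only, the ratio is a bound, so whether they passed 2-fold is not settled. Examples are Alk (57.2 with the supernatant, 13.0 with medium) and Epha8 (9.04 with the supernatant, 39.3 with medium). Among kinases above the floor on both arrays, the next highest was Ddr1, a collagen receptor. It read 113 with the supernatant and 64.8 with medium (log2 ratio 0.80). The lowest was Ddr2, also a collagen receptor, at 46.7 with the supernatant and 88.7 with medium (log2 ratio -0.92). Csf1r, the receptor for M-CSF in which these cells were grown, read 28572 with the supernatant and 30999 with medium.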
